A study of Arabidopsis thaliana with 12 samples.

Results

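The transcripts described here are 10 mRNAs of copper proteins that the small RNAs miR397, miR398, miR408 and miR857 of Arabidopsis thaliana are known to target. They are the laccases LAC2 (AT2G29130), LAC3 (AT2G30210), LAC4 (AT2G38080, listed as IRX12 in the reference), LAC7 (AT3G09220), LAC12 (AT5G05390) and LAC17 (AT5G60020), the copper/zinc superoxide dismutases CSD1 (AT1G08830) and CSD2 (AT2G28190), the copper chaperone CCS1 (AT1G12520, listed as CCS) and the plantacyanin ARPN (AT2G02850). They were chosen by gene ID from 33610 IDs, and all 10 were found. The choice was made with earlier results known, among them that counts of miR397, miR408 and the 5p arm of miR398 lay higher in amiR-SEAP1, so the difference between the genotypes is a description for these genes. No p-value is given for it, and counts of calls in a fit across all genes stand only beside the share over all genes. Of the 10 mRNAs, 6 reached the mean of 1 FPKM (fragments scaled to transcript length and to library size) required for a test, along with 20743 genes in all.

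RNA came from inflorescences of wild-type plants of the Columbia (Col) accession and of plants of the amiR-SEAP1 genotype, which carry an artificial miRNA against SEAP1. Such a designed miRNA silences a transcript chosen in advance. The study asked how targeting SEAP1 alters the accumulation of miRNAs and mRNAs. All plants had 16 h of light and 8 h of dark at 22 °C and no treatment, and their age, the promoter of the transgene and the number of plants per library are not given in the labels. The mRNA libraries, 4 per genotype, fall into 2 sets by their file headers. Set FLW holds replicates 1 and 2 of each genotype and set AI holds replicates 3 and 4, and what these names stand for is not stated. The headers write R15 for amiR-SEAP1 in set FLW and R155 in set AI, and whether these are the same line is not stated either. The small RNA libraries, 2 per genotype, are not tied to a set by their labels.

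In plants the transcription factor SPL7 switches on the MIR397, MIR398, MIR408 and MIR857 genes when copper is scarce, and their small RNAs then lower the mRNAs of copper proteins that the plant can spare. miR398 targets CSD1, CSD2 and CCS1, miR397 targets LAC2, LAC4 and LAC17, miR408 targets ARPN, LAC3 and LAC12, and miR857 targets LAC7. FSD1, an iron superoxide dismutase of the chloroplast, is made in place of the copper enzyme when copper is low.

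The summed FPKM of a library was 680667 to 715611. Relative depth, read from the steps of low FPKM, varied by a factor of at most 1.16. The 2 libraries of a genotype within a set were nearly alike, with a median coefficient of variation of 1.25% to 1.43% over the 2721 genes at 50 FPKM or more, against 13.5% (wild type) and 9.83% (amiR-SEAP1) between sets. They were counted as 1 sample, so a mean ± SD is over n = 2 sets per genotype, and within a set the genotypes have no replicate check. Separate plants are not named as the source of the libraries, so p-values reflect only spread among these samples, and that spread may be technical. All 5 markers of floral organs (AP1, AP3, PI, AG and SEP3) were present in every library, with sums of 525 to 733 FPKM.

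The superoxide dismutase mRNAs were the most abundant of the group and differed between genotypes in opposite directions in the 2 sets. CSD2, the chloroplast copper/zinc enzyme, had 302 and 301 FPKM in wild-type FLW, at 198 and 192 FPKM in amiR-SEAP1 FLW, at 102 and 103 FPKM in wild-type AI and at 170.5 and 166 FPKM in amiR-SEAP1 AI. Wild type thus held both the highest and the lowest libraries, and amiR-SEAP1 lay between them in both sets. In log2(FPKM + 1), on which all differences below are given, amiR-SEAP1 minus wild type was -0.63 in FLW and 0.71 in AI. CSD2 was 2.94-fold higher in FLW than in AI in wild type and 1.16-fold higher in amiR-SEAP1. Over both sets the means were 202 ± 141 FPKM in wild type and 182 ± 18.8 FPKM in amiR-SEAP1 (SD, n = 2).

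CSD1, the cytosolic copper/zinc enzyme, lay at 224 and 215 FPKM in wild-type FLW, at 126 and 130.3 FPKM in amiR-SEAP1 FLW, at 92.4 and 94.6 FPKM in wild-type AI and at 187 and 197 FPKM in amiR-SEAP1 AI. The genotypes did not overlap in either set, and here amiR-SEAP1 was the lower in FLW and the higher in AI, by -0.77 and 1.03. The amiR-SEAP1 level was 0.584 of wild type in FLW and 2.05 times wild type in AI. Means over both sets were 156 ± 89.1 and 160.0 ± 44.98 FPKM (SD, n = 2). CSD1 overlaps another gene in the reference, and as the use of strand in the FPKM values is not given in the sources used here, its values are uncertain to that extent.

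CCS1 delivers copper to both enzymes. It lay at 49.2 and 50.5 FPKM in wild-type FLW, at 38.6 and 39.5 FPKM in amiR-SEAP1 FLW, at 19.5 and 19.2 FPKM in wild-type AI and at 40.4 and 39.6 FPKM in amiR-SEAP1 AI. The amiR-SEAP1 libraries were almost level across the sets, with a mean of 39.5 ± 0.678 FPKM against 34.6 ± 21.6 FPKM in wild type (SD, n = 2). The difference between genotypes was -0.35 in FLW and 1.01 in AI.

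ARPN, a small blue copper protein of the cell wall with a reported part in pollen tube guidance, followed the same order. It lay at 64.2 and 61.8 FPKM in wild-type FLW, at 44.7 and 42.2 FPKM in amiR-SEAP1 FLW, at 33.5 and 31.6 FPKM in wild-type AI and at 44.1 and 45.9 FPKM in amiR-SEAP1 AI. Wild type differed 1.94-fold between the sets, whereas the amiR-SEAP1 libraries of the 2 sets overlapped. The difference between genotypes was -0.53 in FLW and 0.45 in AI.

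Laccases oxidise monolignols and other phenolics in the cell wall. Of the 6 laccases here, LAC4 and LAC17 reached a mean of 1 FPKM. LAC4, with LAC17 a main laccase of lignin polymerization in the stem, lay at 44.0 and 43.7 FPKM in wild-type FLW, at 31.2 and 30.5 FPKM in amiR-SEAP1 FLW, at 26.5 and 27.5 FPKM in wild-type AI and at 33.2 and 32.5 FPKM in amiR-SEAP1 AI. Its genotype difference was -0.49 in FLW and 0.27 in AI. LAC17 lay at 28.3 and 27.0 FPKM in wild-type FLW, at 19.9 and 20.2 FPKM in amiR-SEAP1 FLW, at 25.1 and 25.8 FPKM in wild-type AI and at 24.9 and 24.5 FPKM in amiR-SEAP1 AI. It was the 1 tested target whose amiR-SEAP1 libraries all lay below all wild-type libraries, as in 9.56% of all tested genes (in 14.8% all lay above). The size of that difference was -0.45 in FLW but -0.04 in AI. LAC17 overlaps 2 other genes in the reference.

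The other 4 lay low. LAC2, which acts in the root and in responses to low phosphate, was at 1.17 and 1.30 FPKM in wild-type FLW, at 0.711 and 0.684 FPKM in amiR-SEAP1 FLW, at 0.316 and 0.238 FPKM in wild-type AI and at 0.369 and 0.529 FPKM in amiR-SEAP1 AI. Wild type held both the highest and the lowest libraries, as in the more abundant targets other than LAC17, although at levels where few fragments decide the value. LAC7 was at 0.560, 0.696, 0.476 and 0.584 FPKM in wild-type replicates 1 to 4 and at 1.451 and 1.4996 FPKM in amiR-SEAP1 FLW, and was listed at 0 in both amiR-SEAP1 AI libraries. It was thus higher in amiR-SEAP1 in FLW and lower in AI, the reverse of CSD1, CSD2, CCS1, ARPN, LAC4 and LAC2. LAC12 was between 0.120 and 0.522 FPKM in all libraries. Like LAC17 it was lower in amiR-SEAP1 in both sets, with pair means of 0.241 against 0.454 FPKM in FLW and 0.176 against 0.261 FPKM in AI. LAC3 was listed at 0 in all 8.

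**Figure D1:**
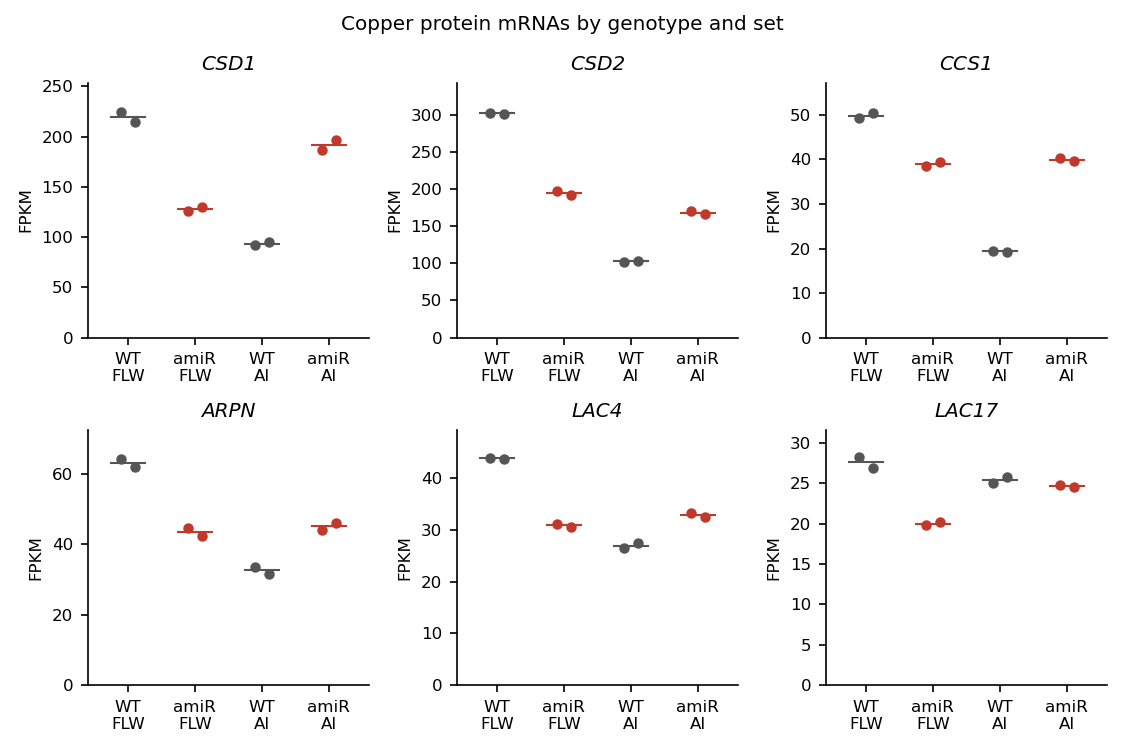
FPKM of the 6 tested copper protein mRNAs (vertical axes from 0) in wild type (WT, grey) and amiR-SEAP1 (amiR, red) in sets FLW and AI; points are libraries and lines the mean of the 2 libraries. In all panels but that of LAC17, wild type in FLW is highest, wild type in AI is lowest and both amiR-SEAP1 pairs lie between, as for CSD2 at 302, 103, 195.05 and 168 FPKM.

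Over the group, 5 of the 6 tested targets (CSD1, CSD2, CCS1, ARPN and LAC4) were lower in amiR-SEAP1 in FLW and higher in AI with no overlap of libraries, a pattern found in 11.5% of all tested genes. CSD1 and CSD2 were at least 1.5-fold apart (in FPKM + 1) in both sets in these directions, as were 0.284% of tested genes. These counts of opposite differences were added after seeing the data and are a description. The median difference of the 6 was -0.51 in FLW and 0.58 in AI, against -0.003 and 0.06 over all tested genes. On the same scale the 5 were at least 1.5-fold lower in AI than in FLW in wild type, as were 7.41% of tested genes, and 0 of the 6 were as much higher, as were 5.03%. Their median change from FLW to AI was -1.08 in wild type and 0.07 in amiR-SEAP1. Within a set each genotype is 1 sample, so neither a genotype difference within a set nor the difference between the sets could be tested.

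Markers of some other cell types moved with this pattern. All 5 tapetum markers (AMS, MS1, A9, ATA7 and CYP703A2), from the anther layer that feeds the pollen, were lower in amiR-SEAP1 in FLW and higher in AI with no overlap (11.5% of all tested genes). Their summed levels were 347 to 358 FPKM in wild-type FLW, 283 FPKM in both amiR-SEAP1 FLW libraries, 257 to 260.2 FPKM in wild-type AI and 431 to 439 FPKM in amiR-SEAP1 AI. The order of these sums differs from that of the targets in that amiR-SEAP1 AI is highest. The 5 mature pollen markers summed to 1889.4 FPKM in wild-type FLW, 1381 in amiR-SEAP1 FLW, 1225 in wild-type AI and 1032 in amiR-SEAP1 AI (means of 2 libraries), and BCP1 and VGD1 fell from FLW to AI, by 1.88 ± 0.11 and 0.63 ± 0.06 (log2, SE, limma adjusted p below the FDR of 0.05). Between the genotypes 0 of the 5 pollen markers were called. With replicate as a block all 5 (ADF7, PRF4, PPME1, VGD1 and BCP1) were called lower in amiR-SEAP1, as were 11.1% of all tested genes. That fit takes the 2 near-identical libraries of a pair as independent. The 12 xylem and fibre markers, of the cells in which LAC4 and LAC17 act in the stem, summed to 132 to 145 FPKM in all 8 libraries, and 0 of the 11 tested showed the pattern of the targets. Between the sets FRA8 fell by 0.84 ± 0.17 and XCP1 by 0.24 ± 0.07, and CESA4 rose by 0.28 ± 0.06 (log2, SE, limma adjusted p = 0.00866, 0.0364 and 0.00887). SND1, a regulator of fibre walls, was listed at 0 in 7 of the 8 libraries. Of the floral organ markers, AP1, PI and AG showed the pattern (11.5% of all tested genes), and AP3, SEP3 and AG rose from FLW to AI (11.8%). Of the 5 green tissue markers 2 fell from FLW to AI (RBCS1A and PSAF), as did 13.5% of all tested genes. The 2 markers of the seed coat endothelium, BAN and TT12, summed to 9.86 to 18.4 FPKM in 6 libraries and to 0.746 and 0.764 FPKM in amiR-SEAP1 AI. The part of these cell types in the result was not tested. In RNA from whole inflorescences, fewer cells of a type and less RNA per cell cannot be told apart.

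**Figure D2:**
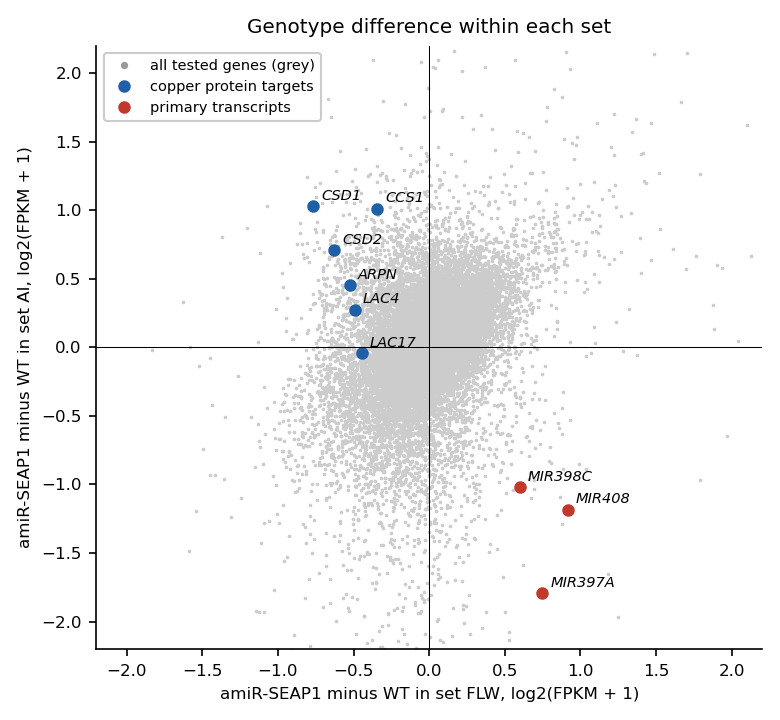
Difference between amiR-SEAP1 and wild type in log2(FPKM + 1) in set FLW (horizontal) and set AI (vertical); small grey points are tested genes, blue points the 6 tested copper protein targets and red points the 3 tested primary miRNA transcripts, with 86 genes outside the axes. The targets other than LAC17 lie in the upper left (CSD1 at -0.77 and 1.03) and the primary transcripts in the lower right (MIR408 at 0.92 and -1.18).

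Averaged over the sets, in limma's fit across all genes, with the correlation between the 2 libraries of a pair, 0 of the 6 were called higher and 0 lower at a false discovery rate (FDR) of 0.05, where 0.231% of tested genes (48) were called higher and 0.082% (17) lower. Also 0 of the 6 reached an unadjusted p under 0.05, where 1029 higher and 973 lower of 20743 tested genes did. A fit with replicate as a block called 13.7% of all tested genes (2852) higher and 11.1% (2306) lower, and again 0 of the 6. The fitted differences were 0.13 ± 0.33 for CSD1, 0.04 ± 0.36 for CSD2, 0.33 ± 0.31 for CCS1, -0.04 ± 0.25 for ARPN, -0.11 ± 0.19 for LAC4 and -0.24 ± 0.13 for LAC17 (log2, SE). Their median was 0.003, against 0.03 over all tested genes. For CSD2 the sets pointed in opposite directions, and its SE was larger than its difference.

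Between the sets, with genotype in the model, CSD2 fell from FLW to AI by 0.88 ± 0.23 on the log2 scale (SE, limma adjusted p = 0.0240). It was the 1 target called, among 13.5% of tested genes (2791) called lower and 11.8% (2444) called higher in AI. When each pair was averaged first, limma called 0 genes in either direction between the sets (with an unadjusted p under 0.05 for 1944 higher and 2366 lower genes, and an adjusted p of at least 0.0623 for all), and CSD2 was not called. CCS1 had a difference of -0.64 ± 0.24 (limma adjusted p = 0.0775), ARPN of -0.44 ± 0.18 (0.108), LAC4 of -0.30 ± 0.14 (0.159), CSD1 of -0.32 ± 0.31 (0.493) and LAC17 of 0.09 ± 0.09 (0.530). For CSD1 the set difference had opposite signs in the genotypes, -1.22 for wild type and 0.58 for amiR-SEAP1.

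The mature small RNAs whose counts led to this choice of genes are given as a description. The 4 small RNA libraries held 2160372 and 2043025 counts on miRNAs for wild type and 1436816 and 1020947 for amiR-SEAP1, a small part of all lines of the files. miR408-3p had 494 and 335 counts in wild type and 1322 and 906 in amiR-SEAP1, or 6.20 ± 2.22 and 15.2 ± 3.23 CPM (counts scaled to a library total of 1e6) of all lines (SD, n = 2). miR397a had 35 and 33 counts in wild type and 88 and 113 in amiR-SEAP1, and miR397b had 9 and 5 against 75 and 78. Neither miRNA overlapped between the genotypes on the scale of all lines, at 0.504 ± 0.067 against 1.39 ± 0.315 CPM for miR397a and 0.105 ± 0.051 against 1.05 ± 0.085 CPM for miR397b. miR857 had 1 and 3 counts in wild type and 12 and 14 in amiR-SEAP1.

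For miR398 the arms differed on the scale of all lines. miR398b-3p and miR398c-3p, which hold the same counts and cannot be told apart, were by far the most abundant, with 8734 and 6781 counts in wild type and 10204 and 18459 in amiR-SEAP1. Their CPM of all lines were 137 and 93.8 against 135 and 263, so the genotypes overlapped on that scale. Scaled to the counts on miRNAs, they were 4043 and 3319 against 7102 and 18080 CPM, without overlap. The passenger arms miR398b-5p, with 11 and 9 against 35 and 30 counts, and miR398c-5p, with nearly the same counts, did not overlap. miR398a-3p had 20 and 10 against 20 and 34 counts, and miR398a-5p, at 6 and 10 against 1 and 2 counts, was the 1 row that lay lower in amiR-SEAP1.

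In edgeR's quasi-likelihood fit relative to other miRNAs, 4.76% of all 294 tested miRNAs (14) were called higher and 1 lower. Of the 14, 7 are rows of these families, in which both near-identical 5p rows of miR398 are counted. DESeq2 called 9 of the 10 tested rows higher, and edgeR with the replicate block called 10 (18 and 38 of all 294 tested miRNAs were called higher). Nothing is read from these counts, since these rows led to the choice of genes. The log2 differences were 2.15 for miR397a, 4.01 for miR397b, 2.01 for miR408-3p, 1.82 for miR408-5p and 3.20 for miR857. For miR398 they were 2.27 for miR398b-5p, 2.25 for miR398c-5p, 1.48 for miR398b-3p and miR398c-3p, and 1.43 for miR398a-3p. The 3p rows of miR398 were not called. On the scale of all alignments 13 miRNAs were called higher and 52 lower, with a median shift of -0.70 over all miRNAs, and the log2 differences of the 10 tested rows of these families were 0.73 to 3.31. Without wild-type replicate 1 or without wild-type replicate 2, 0 of these 10 rows were called, and 0 of all 294 miRNAs. Without amiR-SEAP1 replicate 2, 1 row was called higher, among 3 of all 294 miRNAs. Without amiR-SEAP1 replicate 1, 5 rows were called higher, among 11 of all 294 miRNAs.

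**Figure D3:**
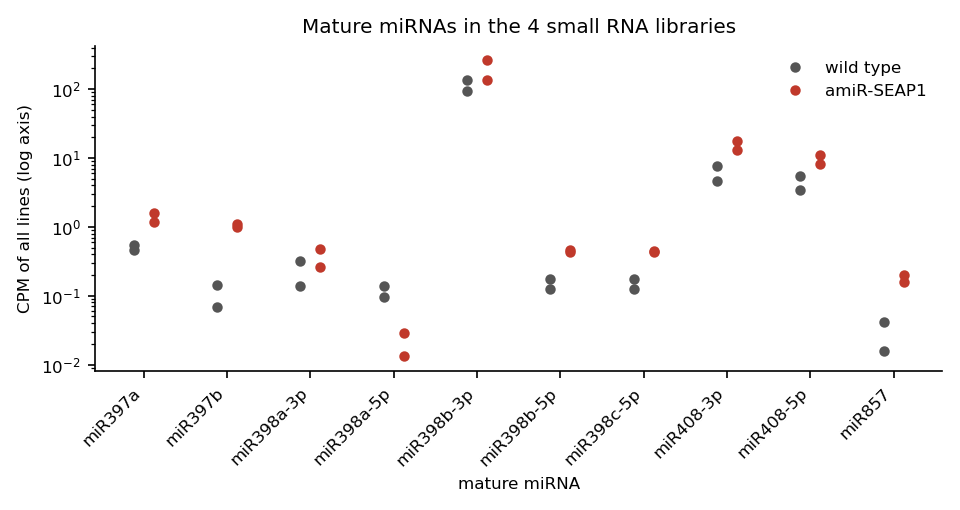
CPM of all lines (logarithmic axis) for each mature miRNA of the families in the 4 small RNA libraries, wild type in grey and amiR-SEAP1 in red. miR408, miR397, miR857 and the 5p arms of miR398b and miR398c do not overlap between the genotypes, as for miR408-3p at 6.20 ± 2.22 and 15.2 ± 3.23 CPM, while miR398b-3p does.

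The primary transcripts of these miRNAs appear in the mRNA libraries. MIR408, MIR397A and MIR398C were higher in wild type in AI, the set in which CSD1, CSD2, CCS1, ARPN and LAC4 were lower in wild type. LAC17 differed little, with pair means of 25.4 FPKM in wild-type AI and 27.6 FPKM in wild-type FLW. COX5B-1, another known target of miR398, was higher in wild-type AI (83.5 against 77.2 FPKM). By pair means the order of groups for MIR408 was the reverse of that for CSD2, a target of miR398. It was not the reverse of that for ARPN, the tested target of miR408. The order for MIR398C was the reverse of those for CSD1 and CCS1 but not for CSD2. For MIR397A it was the reverse of that for LAC4 but not for LAC17. These orders were not tested. MIR408 lay at 0.863 and 0.901 FPKM in wild-type FLW, at 2.55 in both amiR-SEAP1 FLW libraries, at 10.8 and 10.2 FPKM in wild-type AI and at 3.95 and 4.17 FPKM in amiR-SEAP1 AI. Wild type was 11.9-fold higher in AI than in FLW, and amiR-SEAP1 1.59-fold. MIR397A lay at 0.247 and 0.214 FPKM in wild-type FLW, at 0.740 and 1.45 FPKM in amiR-SEAP1 FLW, at 4.77 and 4.02 FPKM in wild-type AI and at 0.835 and 0.320 FPKM in amiR-SEAP1 AI. MIR398C lay at 3.24 and 3.47, 5.49 and 5.68, 9.68 and 8.31, and 3.03 and 5.01 FPKM in the same order of groups.

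All 3 tested primary transcripts (MIR408, MIR397A and MIR398C) were higher in amiR-SEAP1 in FLW and lower in AI with no overlap, as were 6.74% of tested genes. MIR408 rose from FLW to AI by 1.56 ± 0.37 (log2, SE, limma adjusted p = 0.0159) in the fit with genotype in the model. It was not called with the mean of each pair. MIR397B and MIR857 lay under the mean required for a test. Both were listed at 0 in wild-type FLW and were highest in wild-type AI, at 2.25 and 2.58 FPKM for MIR397B and at 2.03 and 1.20 FPKM for MIR857. MIR398A and MIR398B did not exceed 0.478 FPKM in any library. MIR397A, MIR398B and MIR408 share part of their loci with other genes of the reference, which makes these values uncertain. The loci are also short in the reference, at 107 bp for MIR397A, 109 for MIR397B, 115 for MIR398C, 218 for MIR408 and 377 for MIR857. At such lengths few fragments may decide an FPKM value or a fold change. As the small RNA libraries are not tied to a set, mature and primary levels cannot be set side by side within FLW or AI.

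**Figure D4:**
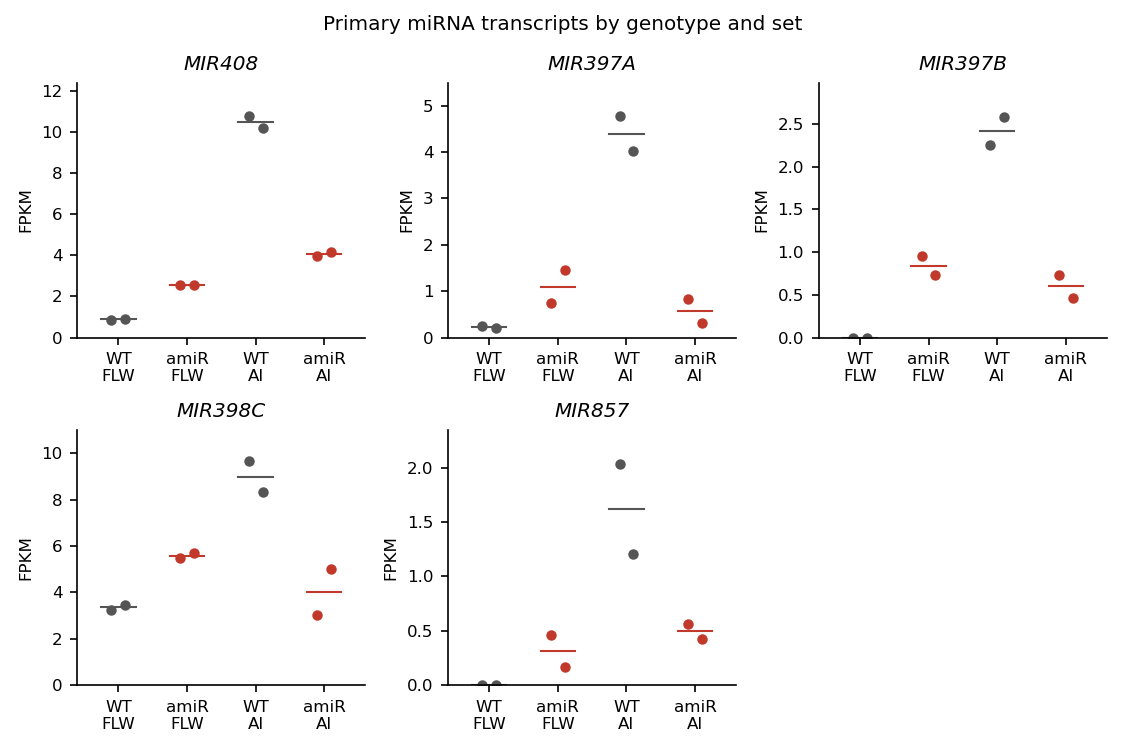
FPKM of 5 primary miRNA transcripts (vertical axes from 0) in wild type (WT, grey) and amiR-SEAP1 (amiR, red) in sets FLW and AI; points are libraries and lines the mean of the 2 libraries. By these means wild type in AI is highest in each panel and wild type in FLW lowest, with amiR-SEAP1 between, as for MIR408 at 10.8 and 10.2 FPKM against 0.863 and 0.901 FPKM.

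All amiR-SEAP1 libraries lay above all wild-type libraries for FSD1, as in 14.8% of all tested genes. It was at 51.5 and 51.3 FPKM in wild-type FLW, at 145 and 143 FPKM in amiR-SEAP1 FLW, at 121 and 119 FPKM in wild-type AI and at 184 and 190.1 FPKM in amiR-SEAP1 AI. The genotype difference of 1.05 ± 0.30 (log2, SE) did not pass in limma's fit (adjusted p = 0.227). In limma it passed with the replicate block (adjusted p = 0.0194), where the 2 libraries of a pair count as independent, and with a set term (0.00298). With the mean of each pair 0 genes were called between the genotypes. FSD1 rose from FLW to AI by 0.79 ± 0.15 (limma adjusted p = 0.00589), the direction opposite to that of CSD2. Of the 5 tested superoxide dismutases outside these genes, 2 rose and 1 fell from FLW to AI, where 11.8% of all tested genes rose and 13.5% fell. MSD1, the mitochondrial manganese enzyme, rose by 0.25 ± 0.06 (adjusted p = 0.0237), and CSD3, the peroxisomal copper/zinc enzyme, which miR398 is not known to target, fell by 0.29 ± 0.07 (adjusted p = 0.0138). CSD3 lay at 36.6 and 35.8 FPKM in wild-type FLW, 30.0 and 28.7 FPKM in wild-type AI, 39.4 and 36.9 FPKM in amiR-SEAP1 FLW and 30.9 and 31.0 FPKM in amiR-SEAP1 AI. Its set difference of -0.29 stands beside -0.88 for CSD2, and the difference between the 2 genes was not tested. The genotypes differed by 0.07 in each set.

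Of 25 genes of copper uptake, delivery and regulation, 22 were tested, 0 were called between the genotypes in either direction, and 6 rose and 1 fell from FLW to AI (11.8% and 13.5% of all tested genes). With the replicate block 3 were called higher between the genotypes, HCC1, SPL7 and YSL3, and 3 lower, ATX1, COPT1 and COPT5 (13.7% and 11.1% of all tested genes). With a set term the 3 lower genes were called and 0 higher (1575 and 1543 of 20743 tested genes). The median genotype difference of the list was 0.03 in FLW and -0.11 in AI. At an unadjusted p under 0.05 the genotype fit found 0 higher and 1 lower (1029 and 973 of 20743 tested genes). The 1 lower gene was the uptake transporter COPT1. It lay at 60.2 to 64.5 FPKM in wild type and at 37.3 to 42.5 FPKM in amiR-SEAP1 (log2 difference -0.62 ± 0.11, limma adjusted p = 0.0677, and 0.00515 with the replicate block). CCH, a copper chaperone, rose most from FLW to AI, by 1.12 ± 0.19 (adjusted p = 0.00398). It lay at 140.4 and 139 FPKM in wild-type FLW, at 171 and 163 FPKM in amiR-SEAP1 FLW, at 457 and 435 FPKM in wild-type AI and at 251 and 248 FPKM in amiR-SEAP1 AI, which is the order of groups seen for MIR408. ZIP4, a metal transporter of the ZIP family, rose by 0.53 ± 0.09 (adjusted p = 0.00426), COX17-1, a copper chaperone for cytochrome c oxidase, by 0.42 ± 0.09 (0.00902) and ATX1, a copper chaperone, by 0.30 ± 0.06 (0.0103). COPT5, a vacuolar copper transporter, fell by 0.29 ± 0.06 (0.00883).

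Within the same list 6 genes (CITF1, COPT2, YSL2, OPT3, PAA1 and CCH) were higher in amiR-SEAP1 in FLW and lower in AI without overlap (6.74% of all tested genes), and 2 (YSL1 and PAA2) had the opposite pattern (11.5%). These 8 were named after their values were seen. CITF1, a transcription factor of copper uptake in flowers, lay at 0.549 and 0.298 FPKM in wild-type FLW, at 1.19 and 1.26 FPKM in amiR-SEAP1 FLW, at 3.08 and 2.88 FPKM in wild-type AI and at 1.69 and 1.41 FPKM in amiR-SEAP1 AI. COPT2, a high-affinity copper transporter, lay at 1.94 and 2.25, 2.80 and 2.74, 5.83 and 5.86, and 3.32 and 2.45 FPKM in the same order of groups. PAA2, the copper pump of the thylakoid, lay at 15.01 and 15.5, 14.2 and 13.9, 9.18 and 9.53, and 15.9 and 16.5 FPKM. SPL7 itself ranged from 17.7 to 18.9 FPKM in wild type and from 20.1 to 21.0 FPKM in amiR-SEAP1, a difference of 0.16 ± 0.11 that did not pass (limma adjusted p = 0.728; 0.0467 with the replicate block).

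**Figure D5:**
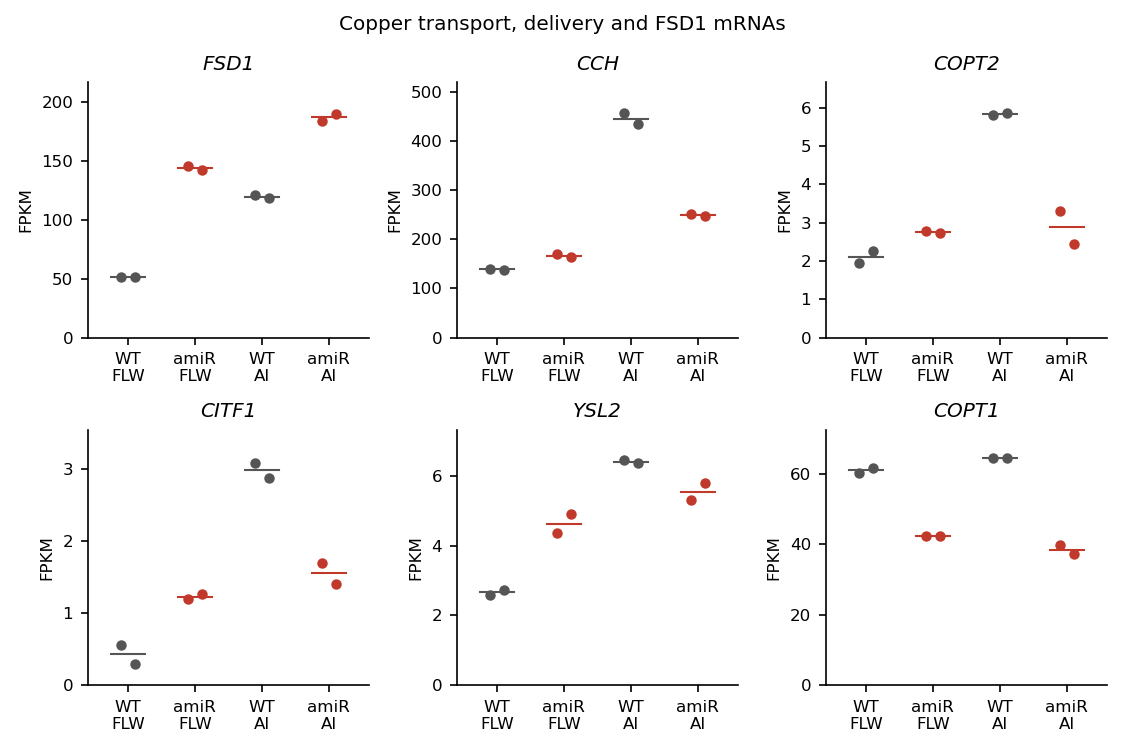
FPKM of FSD1 and 5 genes of copper transport, delivery and regulation (vertical axes from 0) in wild type (WT, grey) and amiR-SEAP1 (amiR, red) in sets FLW and AI; points are libraries and lines the mean of the 2 libraries. CCH, COPT2, CITF1 and YSL2 are highest in wild-type AI, FSD1 is highest in amiR-SEAP1 AI (184 and 190.1 FPKM), and COPT1 is lower in both amiR-SEAP1 pairs (37.3 to 42.5 FPKM).

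Of the 11 laccases outside these 10 genes, 5 were tested, and 0 were called between the genotypes. LAC1 rose from FLW to AI by 0.54 ± 0.16 (limma adjusted p = 0.0396). LAC11, which acts with LAC4 and LAC17 in lignin polymerization, was at 13.1 to 13.9 FPKM in wild type and at 9.28 to 11.2 FPKM in amiR-SEAP1. Its amiR-SEAP1 libraries all lay below all wild-type libraries, as in 9.56% of all tested genes. The log2 difference of LAC11 was -0.38 ± 0.13 (limma adjusted p = 0.362, and 0.0207 with the replicate block). LAC13, also a known target of miR408, ranged from 1.57 to 2.51 FPKM. Unlike ARPN it was higher in amiR-SEAP1 in both sets, with pair means of 2.41 against 2.23 FPKM in FLW and 2.05 against 1.65 FPKM in AI. All 22 genes of monolignol synthesis and lignin polymerization were tested, and 0 were called between the genotypes. At an unadjusted p under 0.05 the genotype fit found 1 lower, 4CL1 (973 of 20743 tested genes were lower). With the replicate block 3 were called lower (11.1% of all tested genes). From FLW to AI 6 rose and 1 fell (11.8% and 13.5% of all tested genes). The entry enzymes PAL2 and PAL1 rose by 0.37 ± 0.07 (adjusted p = 0.00782) and 0.27 ± 0.05 (0.00853), and CSE, an esterase of the pathway, by 0.39 ± 0.08 (0.00942). The peroxidase PRX64 fell by 0.80 ± 0.24 (0.0422). The set difference of LAC4 had the sign of PRX64, at -0.30 ± 0.14, and was not called. The median of the lignin list between the sets was 0.08 in wild type, where all tested genes had -0.05.

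Among 7 other copper protein genes 5 were tested and 0 were called between genotypes or sets. COX5B-1, a subunit of cytochrome c oxidase and another known target of miR398, lay at 77.1 and 77.3 FPKM in wild-type FLW, at 72.5 and 72.3 FPKM in amiR-SEAP1 FLW, at 83.4 and 83.7 FPKM in wild-type AI and at 72.6 and 72.7 FPKM in amiR-SEAP1 AI. Unlike CSD2 it was not lower in wild-type AI than in wild-type FLW. PETE2, the main plastocyanin of the photosynthetic electron chain, was at 753 to 860.1 FPKM in wild type and 922 to 991 FPKM in amiR-SEAP1. BCB, a blue copper binding protein, lay at 138 and 143 FPKM in wild-type FLW against 81.2 to 92.8 FPKM in the other 6 libraries.

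The genes most like the targets over the 8 libraries were sought among all tested genes by Pearson's r of log2(FPKM + 1), as a description of libraries that share 2 sets. For CSD2 they were PDCB3, a plasmodesmata callose-binding protein gene (r = 0.999), AT3G30120 (0.998) and PYL4, an abscisic acid receptor gene (0.997). PYL4 lay at 80.6 FPKM in wild-type FLW, 47.5 in amiR-SEAP1 FLW, 23.5 in wild-type AI and 42.9 in amiR-SEAP1 AI. For ARPN they were SWEET10, a sugar transporter gene (0.996), AT5G21100 (0.994) and AT1G51200 (0.991). SWEET10 lay at 127, 81.3, 57.7 and 82.8 FPKM in the same order of groups. For CSD1 they were AT2G05790 (0.998), GER1, a germin-like protein gene (0.994), and AT1G62500 (0.993), and for LAC4 they were AT1G55360 (0.989), CLV2, a receptor-like protein gene of the shoot meristem (0.986), and CYP81D11, a cytochrome P450 gene (0.984). Among the targets themselves r was 0.973 between ARPN and LAC4 and between ARPN and CSD2, 0.941 between CSD2 and CCS1 and 0.833 between CSD1 and CSD2. LAC17 stood apart, with r of 0.133 with CSD2 and 0.313 with ARPN.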

How the data were processed

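For each gene the authors deposited FPKM values, as the file headers show, and for each mature miRNA they deposited raw counts. HISAT2 and TAIR10 are named in the submitters' processing notes. How FPKM were computed, from which annotation and with what strand setting, is not given in the sources used here. Summary lines without a miRNA name made up 96.6% to 98.5% of the small RNA counts. Library sizes and tests left them out, apart from the scale of all alignments.

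Symbols and overlaps between genes came from the RefSeq table of assembly TAIR10.1, in which 28932 of 33610 gene IDs matched. No coordinates or sequences are given. SEAP1 was found under no symbol and is not analysed here.

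The members, gene lists and tests were chosen with earlier results of these data known. Groups and replicates come from sample titles, and sets from file headers. Genes averaging 1 FPKM or more were tested with limma 3.58.1 on log2(FPKM + 1), a scale that understates the change of low genes, with a mean-variance trend and the correlation of the 2 libraries of a pair. P-values were adjusted by Benjamini-Hochberg over all 20743 genes at an FDR of 0.05. The contrast of sets had genotype in the model. Small RNA counts were tested with edgeR 4.0.16 (quasi-likelihood, TMM, filterByExpr) in R 4.3.3, with DESeq2 1.42.0 as an alternative. The fits were tested on simulated data. Other alternatives were filters, pseudocounts, scalings, the pairs as independent or as means, the replicate block (for mRNA with the 8 libraries as independent) and leaving out each library.

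mRNA libraries with the same number moved together around their group means (r = 0.398, 0.420, 0.405 and 0.430 across genes), which counts as a pairing. Libraries with the other number of the same set did so as well (0.395 to 0.430), so the values show a shared set.

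Named genes are all members, all rows of the miRNA families, from each list the genes past the FDR (at most 4 in a direction), and the 3 genes most like ARPN, LAC4, CSD1 and CSD2. 1 gene under this rule is not reported here. Other names were chosen after their values were seen. Counts of genes with opposite differences in the sets were added after seeing the data.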

Additional observations from a re-analysis of the deposited data

Results flagged for a closer look

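Among the 10 targets and 7 primary transcripts, 12 had genotypes that differed without overlap in opposite directions in the 2 sets. Of all tested genes, 11.5% were lower in amiR-SEAP1 in FLW and higher in AI in this way, and 6.74% had the reverse. LAC2, LAC7, MIR397B and MIR857, which are among the 12, lay under the mean of 1 FPKM required for a test. The difference between sets was not tested because each genotype is 1 sample in a set. Given as the AI difference minus the FLW difference (log2(FPKM + 1), amiR-SEAP1 minus wild type), it was 1.80 for CSD1, 1.36 for CCS1, 1.34 for CSD2, 0.98 for ARPN, 0.77 for LAC4 and 0.58 for LAC2. It had the opposite sign in LAC7 (-1.22) and in the primary transcripts MIR397A (-2.54), MIR408 (-2.10), MIR397B (-1.98), MIR398C (-1.62) and MIR857 (-1.18).

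In 4 groups of 4 libraries 1 library stood apart from the others (the gap to the nearest library divided by the range, above Dixon's critical value). Chance alone sets apart about 1 group in 20 where libraries are independent. The libraries here come in near-identical pairs, so that rate does not apply to them. The ratio was 0.840 for LAC12 in amiR-SEAP1, 0.844 for MIR398B in wild type, and 1 for MIR398A and for MIR398B in amiR-SEAP1. The ratio of 1 follows from values of 0 in all amiR-SEAP1 libraries but 1. All of these values lie under 1 FPKM.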

How the results depend on the processing

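For the targets, 114 genotype values under alternatives kept their direction and their side of the threshold, and 0 of the 6 were called in any of them. Of the values between sets, 101 did so, and CSD2 was no longer called with the mean of each pair. With no filter LAC2 was tested too and was called lower in AI (log2 difference -0.52, limma adjusted p = 0.0347).

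The counts over all genes depended on the processing, and the cause was not tested. Between the genotypes limma called 48 higher and 17 lower, against 142 and 71 with no filter, 13 and 3 at a mean of at least 5 FPKM, 1556 and 975 with 8 libraries as independent, 0 and 0 with the mean of each pair (692 and 558 at an unadjusted p under 0.05), 21 and 4 with no trend, 2852 and 2306 with the replicate block and 1543 and 1575 with a set term. Leaving out 1 library gave 13 to 21 higher and 1 to 4 lower. Between the sets 2444 and 2791 were called, against 4646 and 5451 with 8 libraries as independent and 0 and 0 with the mean of each pair. For miRNAs edgeR called 14 higher and 1 lower, against 52 lower on the scale of all alignments, and 38 and 14 with the replicate block. Leaving out 1 library gave 0 to 11 higher and 0 to 8 lower. The replicate block and the set term called 0 of the 6 targets.

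Other genes of the lists kept their set result in 419 values and lost the call in 103. Low fragment numbers limit LAC2, LAC3, LAC7 and LAC12.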
